A study of Mus musculus with 6 samples.

Results

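The core of the beta-catenin branch of Wnt signalling was read as 10 named genes: the co-receptor Lrp6, the transducer Dvl2, the destruction complex genes Apc, Axin1, Axin2 and Gsk3b, beta-catenin itself (Ctnnb1), and the DNA-binding partners Lef1, Tcf7 and Tcf7l2. Members were taken by gene symbol, as every probe set whose only symbol in the platform annotation was one of these names. That gave 9 probe sets for 9 of the 10 genes, out of 19934 genes with a value, and no probe set under the symbol Tcf7, for which no score was read here. The symbols were listed by name and no measured value entered the rule, but earlier results of these data were known when they were chosen.

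RNA came from mouse bone marrow sorted as Lin-c-Kit+Sca-1+, a gate for blood stem and early progenitor cells, on 6 Affymetrix whole-transcript arrays, 2 in each of 3 groups. All groups are labelled C57BL/6 (B6) and 8 weeks of age, and all come from a retroviral transplantation model of chronic myeloid leukaemia (CML) in which donors were treated with 5-fluorouracil and recipients were B6 mice. HSC cells were wild type, did not express BCR-ABL, the fusion kinase of CML, and are described as vector samples. LSC (leukaemia stem cells) carried BCR-ABL and GFP on a retrovirus in wild-type donor marrow. Alox5-/- LSC carried the same virus in marrow of Alox5-/- donors, which lack arachidonate 5-lipoxygenase. LSCs were sorted as GFP-positive cells of the gate, and all 6 arrays are listed at 14 days after transplantation. The labels number the arrays of a group as biological replicates without saying how many animals each held, so p-values measure the spread between these samples. Vector cells of Alox5-/- donors were not analysed here.

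In Wnt signalling, a ligand bound to a Frizzled receptor and LRP6 recruits Dishevelled proteins such as DVL2 and AXIN1 to the membrane. Without ligand, a complex built on AXIN1 and APC holds beta-catenin for phosphorylation by GSK3B, which marks it for degradation. Beta-catenin that escapes enters the nucleus and activates genes with TCF and LEF proteins, among them the feedback gene Axin2. In mouse CML models beta-catenin has been studied for its part in the renewal of leukaemia stem cells.

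Start-site sequences were read for the members with RefSeq entries of build GRCm38.p6. Of the 10 genes, 7 had at least 1 entry, with 13 windows in all (2 of them of Tcf7), each taken as the 250 bases before an annotated transcript start. The letters CTTTG followed by any pair of the letters A and T, the core recognised by TCF and LEF proteins, were searched on both strands, without mismatches. A match lay in 2 of the 13 member windows, against 14.8% of the 32851 windows in the table. Ctnnb1 and Dvl2 are shown because, as deposited, their HSC arrays lay closest together beside LSC arrays that did not overlap them. The Lef1 and Tcf7l2 windows are shown because they hold the matches, in capitals. Each sequence runs 5′ to 3′ on the strand of its gene.
Ctnnb1, chr9:120933150-120933399, plus strand: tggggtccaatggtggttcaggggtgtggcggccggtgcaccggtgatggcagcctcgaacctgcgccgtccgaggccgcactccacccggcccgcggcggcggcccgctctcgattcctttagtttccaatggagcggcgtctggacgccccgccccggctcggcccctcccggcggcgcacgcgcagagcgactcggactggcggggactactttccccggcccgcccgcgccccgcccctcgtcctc
Dvl2, chr11:70000342-70000591, plus strand: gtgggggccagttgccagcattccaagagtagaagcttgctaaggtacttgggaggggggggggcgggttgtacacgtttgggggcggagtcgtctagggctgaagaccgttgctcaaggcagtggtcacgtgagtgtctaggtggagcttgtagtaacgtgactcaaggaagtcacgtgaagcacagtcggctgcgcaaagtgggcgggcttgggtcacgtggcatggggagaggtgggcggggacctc
Lef1, chr3:131156044-131156293, plus strand: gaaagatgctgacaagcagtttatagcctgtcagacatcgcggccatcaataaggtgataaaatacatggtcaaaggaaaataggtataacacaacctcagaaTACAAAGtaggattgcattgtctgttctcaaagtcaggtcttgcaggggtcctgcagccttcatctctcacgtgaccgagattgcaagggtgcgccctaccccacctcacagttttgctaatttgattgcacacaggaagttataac
Tcf7l2, chr19:55895071-55895320, plus strand: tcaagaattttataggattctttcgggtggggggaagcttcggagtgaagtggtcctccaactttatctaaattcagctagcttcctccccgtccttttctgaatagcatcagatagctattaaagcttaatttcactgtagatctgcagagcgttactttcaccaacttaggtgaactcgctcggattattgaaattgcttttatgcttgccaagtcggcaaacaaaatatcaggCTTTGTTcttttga

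The match in the Lef1 window is CTTTGTA on the opposite strand, printed as TACAAAG, and begins 147 bases before a start downstream of the gene's other listed starts. The match in the Tcf7l2 window is CTTTGTT and begins 14 bases before a start that also lies downstream of another. The 11 other member windows held none of these letters, which speaks only of those windows. The windows of the members were rich in G and C, with a median of 66.4% (range 40.8% to 76.0%) against 52.4% over all windows, and a median of 15 CpG against 6.

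The deposited values are scores without a stated unit, and their direction had to be examined before any member was read. Array medians ran from 14.5 to 16.4 and scores reached 62.1. The 16 probe sets of 11 broadly expressed genes had a median mean score of 11.4 (quartiles 8.56 and 18.4). The 185 probe sets of 61 cytosolic ribosomal protein genes had 11.5 (6.72 and 18.1). The 1207 probe sets of olfactory and vomeronasal receptors, genes of sensory neurons, had 16.1 (14.1 and 18.2), and 52 keratin probe sets had 15.8. Medians of single arrays ran from 10.6 to 12.7 for the ribosomal genes and from 15.3 to 16.9 for the receptors. Probe sets of 1 abundant gene lay far apart, as for Tpt1 with mean scores of 1.15, 7.61, 22.8 and 23.9. Lists of abundant and of tissue-foreign genes therefore overlapped, and a higher score cannot be read as more RNA. All differences below are differences of the score, with no fold change. Scores of different genes are not set against each other, apart from marker sums, which add them and which 1 gene can decide.

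**Figure D1:**
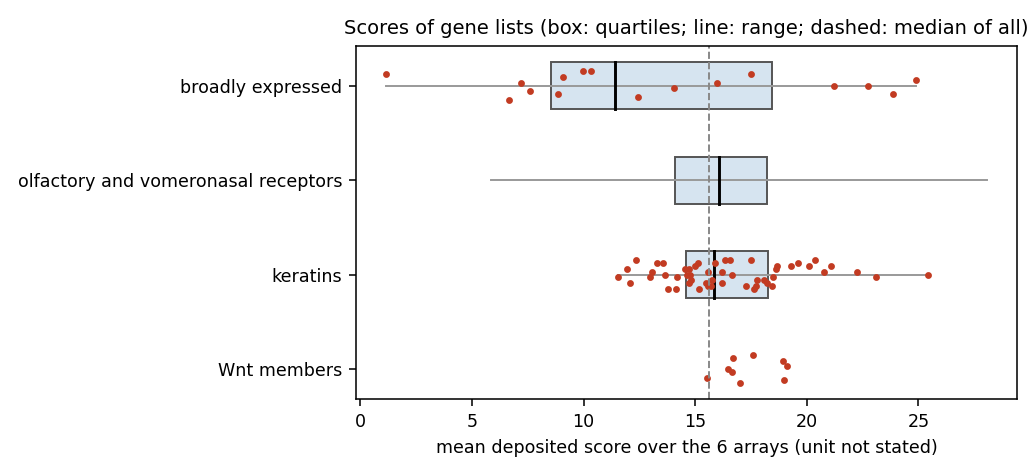
Mean deposited score over the 6 arrays (horizontal axis, unit not stated) for broadly expressed genes, olfactory and vomeronasal receptors, keratins and the 9 Wnt members; boxes are quartiles with the median, grey lines the range, red points single probe sets and the dashed line the median of all probe sets. Broadly expressed genes have a median of 11.4, below the 16.1 of the receptors, and their ranges overlap.

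Over all probe sets, Pearson correlations were 0.794 to 0.824 within groups and 0.782 to 0.839 between groups, and these ranges overlap. Alox5 had scores of 12.62 and 19.89 in HSC, 13.21 and 14.21 in LSC, and 14.41 and 13.54 in Alox5-/- LSC, and with an unknown scale they check no genotype. Of the gate markers, Kit and Ptprc had probe sets (summed scores of 22.2 to 27.4 in HSC, 20.2 to 23.99 in LSC and 21.5 to 22.5 in Alox5-/- LSC), and Ly6a had none with a single symbol. Among marker lists of 6 other cell classes, summed scores of HSC and LSC arrays did not overlap for 4. Of single probe sets, 34.2% did not overlap between these groups in either direction, and no such share was counted for sums. T cell markers (81.5 to 83.3 in HSC and 79.7 to 82.1 in LSC) overlapped. So did granulocyte and monocyte markers (78.2 to 83.8 in HSC and 80.3 to 82.2 in LSC). B cell markers (3 of 4 measured) summed to 50.3 to 60.2 in HSC, 40.6 to 47.3 in LSC and 37.9 to 43.1 in Alox5-/- LSC. Cd79a had scores of 23.75 and 28.18 in HSC and 16.87 and 13.86 in LSC. Without it (a sum chosen after seeing the data) HSC (26.6 to 32.1) and LSC (26.7 to 30.4) overlapped. Ms4a1 had 14.60 and 17.08 in HSC and 14.10 and 12.87 in LSC, a difference of -2.36 without overlap. Cd79b differed by 1.60 in the other direction and its groups overlapped. Erythroid markers (2 of 5 measured) summed to 32.7 to 35.1, 30.4 to 31.1 and 29.2 to 31.2 in the same order. Megakaryocyte markers (3 of 3) summed to 42.5 to 46.4, 48.8 to 50.2 and 42.5 to 49.0, and stromal and endothelial markers (4 of 4) to 66.4 to 66.9, 69.2 to 70.1 and 64.7 to 68.9. No marker was at 0 on any array, and the part of other cells in the results below was not tested. In bulk RNA, a change in the share of a cell type and a change in RNA per cell cannot be told apart. With the direction of the score unknown, a lower sum cannot be read as fewer cells.

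Lrp6, the co-receptor that binds Wnt ligands with Frizzled, had scores of 16.97 and 24.15 in HSC, 15.88 and 16.16 in LSC, and 14.47 and 12.12 in Alox5-/- LSC. Both LSC arrays lay below both HSC arrays and both Alox5-/- LSC arrays lay lowest of all, so no pair of groups overlapped. The HSC arrays were 7.18 apart, a gap larger than that of 95.2% of all probe sets. The largest differences of any member were those of Lrp6, at -4.54 ± 2.43 (SE) for LSC minus HSC, -2.72 ± 2.43 for Alox5-/- LSC minus LSC and -7.27 ± 2.43 for Alox5-/- LSC minus HSC. None passed correction over all probe sets, with limma adjusted p of 0.993, 1.00 and 0.769. The size of the first and the last rested on HSC replicate 2, without which they were -0.95 and -3.68.

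Dvl2, a Dishevelled protein that passes the signal from the receptors to the Axin complex, had scores of 17.99 and 17.96 in HSC, 15.99 and 16.51 in LSC, and 16.42 and 17.15 in Alox5-/- LSC. Its replicates, as deposited, lay closer together than those of most probe sets, with gaps of 0.0346, 0.518 and 0.735. With each array centred on its median, the gaps were 0.853 in HSC, 0.479 in LSC and 1.98 in Alox5-/- LSC. As deposited, the HSC arrays lay above all 4 BCR-ABL arrays, and the LSC and Alox5-/- LSC arrays overlapped. After centring each array on its median, the HSC arrays lay at 0.95 and 0.09 from the gene's mean over the 6 arrays and Alox5-/- LSC replicate 2 at 1.20, so these groups overlapped. LSC minus HSC was -1.73 ± 1.07 (SE; 95% interval -4.35 to 0.90), with a limma adjusted p of 0.993. Leaving out any 1 array kept this difference between -1.98 and -1.47. Alox5-/- LSC minus LSC was 0.53 ± 1.07 (95% interval -2.09 to 3.16), an interval that holds shifts of either sign. From HSC, Alox5-/- LSC differed by -1.19 ± 1.07 (limma adjusted p = 0.858).

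The destruction complex genes did not share a pattern. Gsk3b, the kinase that phosphorylates beta-catenin, had scores of 18.05 and 18.18 in HSC, 15.12 and 15.98 in LSC, and 17.28 and 14.26 in Alox5-/- LSC. The HSC arrays lay above all 4 BCR-ABL arrays, while the Alox5-/- LSC arrays lay on either side of the LSC arrays. LSC minus HSC was -2.56 ± 1.38 (SE; limma adjusted p = 0.993) and Alox5-/- LSC minus LSC was 0.23 ± 1.38 (adjusted p = 1.00). Against HSC, the Alox5-/- LSC mean differed by -2.34 ± 1.38 (adjusted p = 0.810), by -3.85 without Alox5-/- LSC replicate 1 and by -0.83 without replicate 2.

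Apc, the scaffold whose loss stabilises beta-catenin in colon tumours, had scores of 22.04 and 19.30 in HSC, 17.74 and 20.79 in LSC, and 19.81 and 14.95 in Alox5-/- LSC. Every pair of groups overlapped. Group means fell in the order HSC (20.7 ± 1.93, SD, n = 2), LSC (19.3 ± 2.15) and Alox5-/- LSC (17.4 ± 3.43), and no neighbours in that order differed beyond their spread. Alox5-/- LSC minus HSC was -3.29 ± 2.12 (SE; limma adjusted p = 0.815), and it was -5.72 without Alox5-/- LSC replicate 1 and -0.86 without replicate 2. The LSC mean differed from HSC by -1.41 ± 2.12 and the Alox5-/- LSC mean from LSC by -1.88 ± 2.12.

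Axin1, the limiting scaffold of the complex, had scores of 17.11 and 12.60 in HSC, 15.75 and 14.52 in LSC, and 19.07 and 14.10 in Alox5-/- LSC. As deposited, it was the only member of the 9 whose mean score was higher in LSC than in HSC, by 0.28 ± 2.24 (SE), and leaving out HSC replicate 2 turned that to -1.98. Its mean in Alox5-/- LSC was higher still, by 1.45 ± 2.24 from LSC and 1.73 ± 2.24 from HSC, and all groups overlapped. Axin2, the feedback target of beta-catenin, had scores of 16.84 and 17.26 in HSC, 19.90 and 13.93 in LSC, and 18.20 and 13.94 in Alox5-/- LSC. The HSC arrays nearly coincided, and in each BCR-ABL group replicate 1 stood above them and replicate 2 below. The 5.97 between the LSC arrays exceeded the gap of 94.6% of probe sets. LSC minus HSC was -0.14 ± 2.37 (95% interval -5.95 to 5.68), and its sign turned after centring each array on its median (0.34) and after quantile normalization (0.37). The Alox5-/- LSC mean differed by -0.84 from LSC and by -0.98 from HSC, each with the same SE.

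Ctnnb1, beta-catenin, had scores of 19.39 and 19.27 in HSC, 17.25 and 15.26 in LSC, and 18.92 and 15.46 in Alox5-/- LSC. As deposited, the HSC arrays coincided within 0.122 and lay above all 4 BCR-ABL arrays, and the Alox5-/- LSC arrays overlapped those of LSC. After centring, the HSC arrays lay 0.94 apart, at 1.75 and 0.81 from the gene's mean, and Alox5-/- LSC replicate 1 lay between them at 1.14. LSC minus HSC was -3.07 (95% interval -6.89 to 0.74) and had the smallest unadjusted limma p of any member in that comparison, 0.0961, with an adjusted p of 0.993. Alox5-/- LSC minus LSC was 0.94, with a 95% interval from -2.88 to 4.76. That difference was -0.79 without Alox5-/- LSC replicate 1 and 2.67 without replicate 2 of that group, so these arrays do not settle a direction for beta-catenin between the BCR-ABL groups. The Alox5-/- LSC mean differed from the HSC mean by -2.14 ± 1.56 (SE; limma adjusted p = 0.832), by -3.87 without Alox5-/- LSC replicate 1 and by -0.41 without replicate 2.

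Among the DNA-binding partners of beta-catenin, Lef1 had scores of 19.55 and 20.25 in HSC, 17.97 and 16.93 in LSC, and 21.08 and 18.05 in Alox5-/- LSC. LSC was lowest: its arrays lay below all other arrays, and those of HSC and Alox5-/- LSC overlapped. LSC minus HSC was -2.45 ± 1.41 (SE; limma adjusted p = 0.993) and Alox5-/- LSC minus LSC was 2.12 ± 1.41 (adjusted p = 1.00). Both comparisons use the same LSC arrays, so their opposite signs are not independent. Lef1 was the only member whose score was higher in Alox5-/- LSC than in LSC without overlap, but LSC replicate 1 (17.97) and Alox5-/- LSC replicate 2 (18.05) were close. Alox5-/- LSC minus HSC was -0.33 as deposited, 0.55 after centring and 0.47 after quantile normalization.

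Tcf7l2, which encodes TCF4, had scores of 19.84 and 20.22 in HSC, 19.45 and 18.37 in LSC, and 20.50 and 15.32 in Alox5-/- LSC. The LSC arrays lay below the HSC arrays by a small margin and the Alox5-/- LSC arrays lay on either side of both groups. The LSC mean differed from the HSC mean by -1.12 ± 1.86 (SE; limma adjusted p = 0.996), and the Alox5-/- LSC mean by -2.12 ± 1.86 (adjusted p = 0.854). Alox5-/- LSC minus LSC was -0.996 ± 1.86 (adjusted p = 1.00) and rested on Alox5-/- LSC replicate 2, without which it was 1.59.

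**Figure D2:**
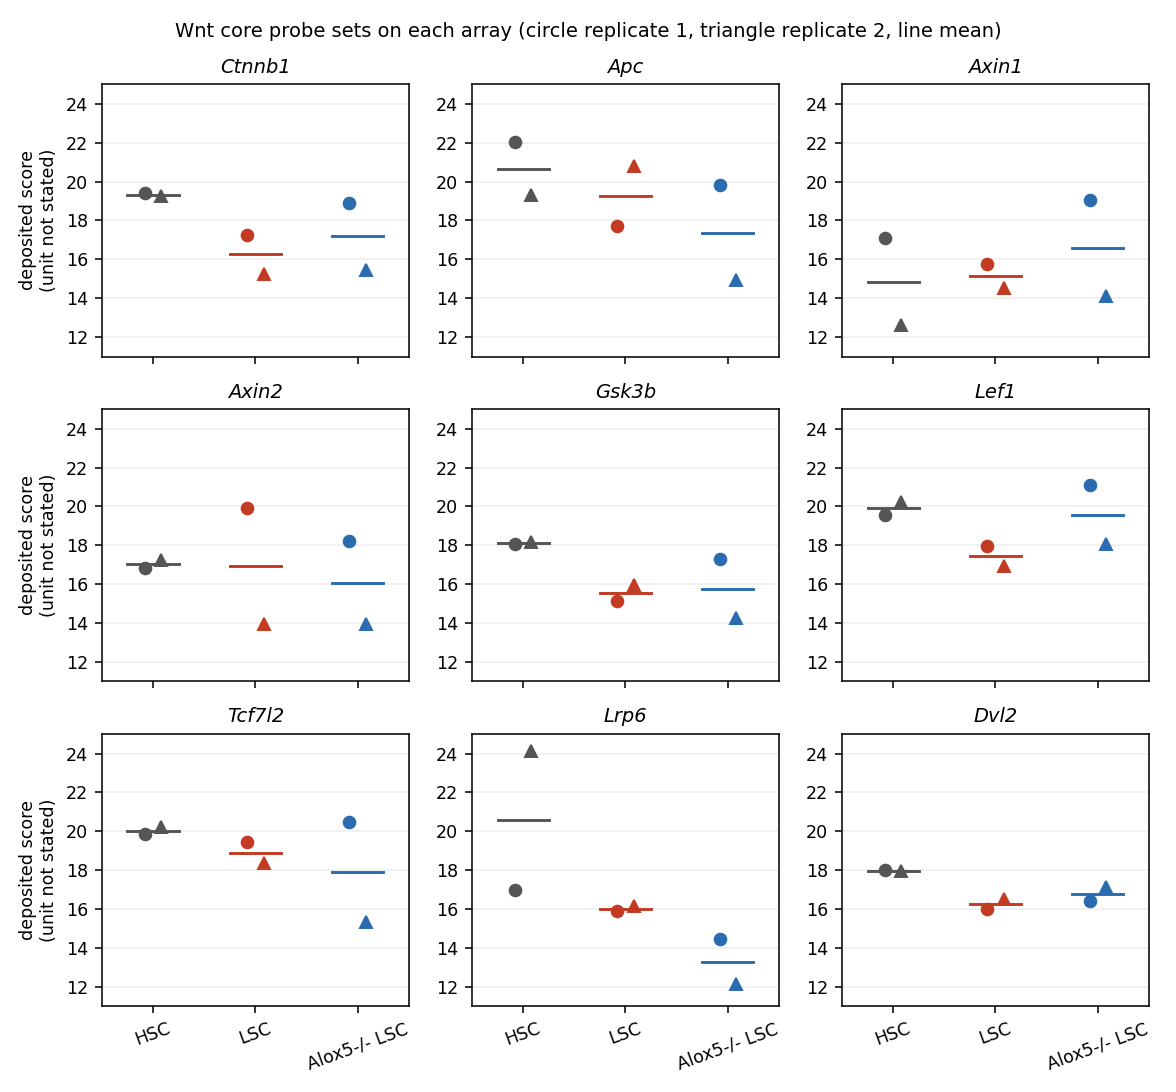
Deposited score (vertical axis, unit not stated) of the 9 Wnt core probe sets on each of the 6 arrays, by group; circles are replicate 1, triangles replicate 2 and lines group means. As deposited, Ctnnb1, Gsk3b and Dvl2 have nearly coincident HSC arrays above all BCR-ABL arrays, and Axin2 has LSC arrays of 19.90 and 13.93; after centring, the HSC arrays of Ctnnb1 and Dvl2 overlap those of Alox5-/- LSC.

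LSC against HSC sets BCR-ABL cells, sorted for GFP, beside vector cells. Scores of 8 of 9 members were lower in LSC, against 60.8% of all 34499 probe sets. The LSC arrays lay below the HSC arrays without overlap for 6 of 9 members (Ctnnb1, Gsk3b, Lef1, Tcf7l2, Lrp6 and Dvl2), against 23% of all probe sets in that direction and 34.2% in either. The median difference of the members was -1.73, and that of all probe sets was -0.43. After centring each array on its median, 7 of 9 members were lower and 5 (the same without Tcf7l2) lay below without overlap, against 48.7% and 16.3% of all probe sets. The median difference was then -1.25 for the members and 0.05 for all probe sets. None of the 9 had an unadjusted limma p under 0.05, where 4.94% of all probe sets did, and none passed after Benjamini-Hochberg adjustment, where 0% of all probe sets did.

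Alox5-/- LSC against LSC sets BCR-ABL cells of Alox5-/- donors beside those of wild-type donors. Of 9 member scores, 4 were lower and 5 higher, with 57.4% of all probe sets lower. Groups did not overlap for 2 of 9 members, Lef1 higher and Lrp6 lower, against 10.9% and 20.7% of all probe sets in these directions and 31.6% in either. The median difference was 0.23 for the members and -0.28 for all probe sets. None had an unadjusted limma p under 0.05, against 3.96% of all probe sets, and 0% of all probe sets passed after adjustment. The sign count followed single arrays. Without Alox5-/- LSC replicate 1, 7 of 9 were lower, against 69.2% of all probe sets. Without replicate 2 of that group, 1 of 9 was lower, against 46.1%.

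Alox5-/- LSC against HSC shares arrays with both comparisons above. In it, 8 of 9 member scores were lower, against 67.1% of all probe sets, and 4 of 9 lay below without overlap (Ctnnb1, Gsk3b, Lrp6 and Dvl2), against 27.6% in that direction and 35.7% in either. After centring, 7 of 9 were lower and 2 (Gsk3b and Lrp6) lay below without overlap, against 46.3% and 15.1% of all probe sets. These counts also followed single arrays. Without Alox5-/- LSC replicate 1, 9 of 9 were lower and 8 lay below without overlap, against 75.3% and 57.3% of all probe sets. Without replicate 2 of that group, 5 of 9 were lower (54.7% of all) and 4 lay below without overlap (36.7%). Another 4 lay above without overlap. The share of all probe sets in that direction was not counted, so this count cannot be judged. Lrp6 alone had an unadjusted limma p under 0.05 (0.0245), against 6.44% of all probe sets, and 0% of all probe sets passed after adjustment. Of the 27 intervals for the members over the 3 comparisons, 26 held 0, and their widths ran from 5.25 to 11.9 score units.

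**Figure D3:**
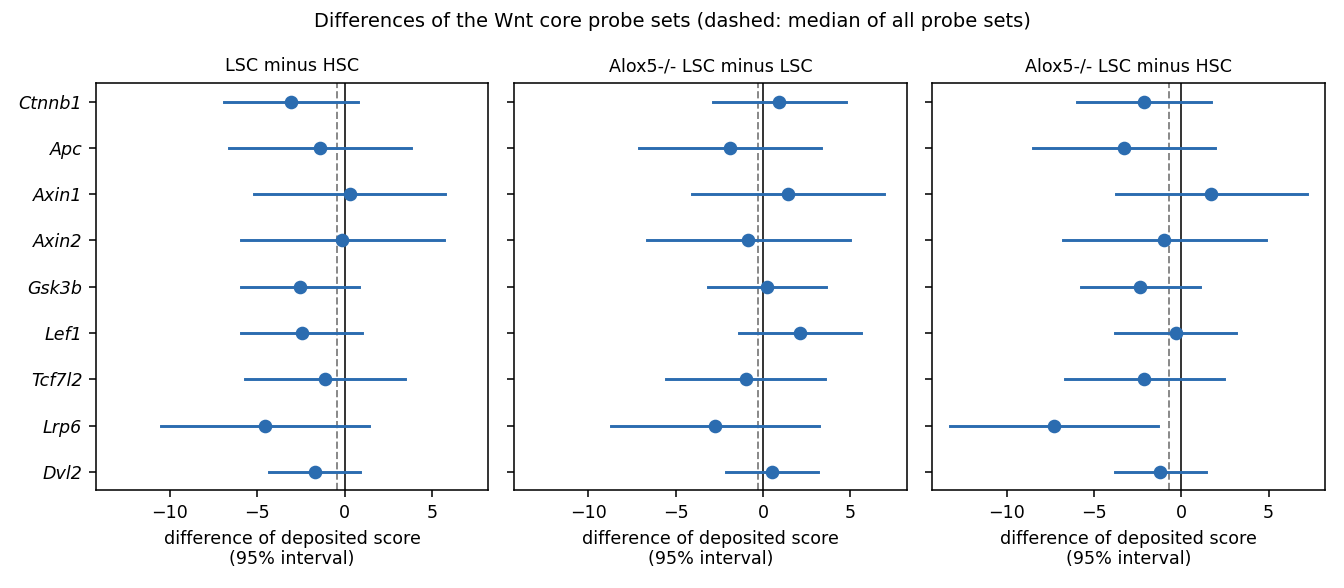
Difference of the deposited score (horizontal axis) for each of the 9 Wnt core probe sets in the 3 comparisons; points are differences of group means, bars 95% limma intervals and dashed lines the median of all probe sets. Only the Lrp6 interval for Alox5-/- LSC minus HSC, from -13.2 to -1.31, leaves out 0.

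Between the Alox5-/- LSC arrays, replicate 1 stood above replicate 2 for 8 of 9 members, all but Dvl2, against 68.9% of all probe sets, and the gap exceeded 3 units for 7 of 9, against 28%. After centring, replicate 1 was still higher for the same number of members, 8 of 9, against 46.4% of all probe sets, and the gap exceeded 3 units for 4 of 9, against 24.3%. The centred HSC arrays gave the same count, with replicate 1 higher for 8 of 9 members, against 53.1% of all probe sets. Their gap exceeded 3 units for 3 of 9, against 25.6%. For the centred LSC arrays these counts were 5 of 9, against 50.9%, and 2 of 9, against 21.5%. As deposited, gaps over 3 units were seen for 2 of 9 members in HSC (Axin1 and Lrp6), against 27% of all probe sets. In LSC they were seen for 2 of 9 (Apc and Axin2), against 21.6%. The median gap of the members was 0.43 in HSC, 1.08 in LSC and 3.46 in Alox5-/- LSC, against 1.68, 1.42 and 1.69 for all probe sets. The array with the lowest median of all, Alox5-/- LSC replicate 2 (14.5), was also the array on which the members lay lowest, at a median of -2.22 from their own means and -1.16 after centring.

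The genes whose centred scores ran most like those of Ctnnb1 over the 6 arrays were Csf3r, the receptor of granulocyte colony-stimulating factor (Pearson r = 0.989), Taf4, a subunit of the general transcription factor TFIID (0.987), and Pfas, an enzyme of purine synthesis (0.986). Of 20300 probe sets of named genes, 114 (0.562%) exceeded 0.9. Csf3r had scores of 23.12 and 22.63 in HSC, 19.95 and 17.58 in LSC, and 21.65 and 17.98 in Alox5-/- LSC. Among the members, Lef1 (0.803) and Gsk3b (0.772) ran most like Ctnnb1 and Dvl2 (0.142) least. These are descriptions of 6 arrays and were not tested.

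The rest of the pathway was read from a list of 115 gene symbols ordered by role, of which 114 had a probe set and 119 probe sets had values. The symbol without one, Fam123b, is another name of Amer1, which is in the list and was measured. In LSC against HSC, 73 of 119 scores were lower (61.3%, against 60.8% of all probe sets), the median difference was -0.40 against -0.43, and 3 (2.52%, against 4.94% of all) had an unadjusted limma p under 0.05, all lower, as were 69.9% of all such probe sets. None of the list passed after adjustment in any comparison. The share of lower scores in the list was thus close to that of the arrays as a whole. The destruction complex and its regulators had a median of -0.99 over 16 probe sets, receptors -0.67 over 17, ligands -0.21 over 20, nuclear partners -0.23 over 16 and targets -0.35 over 12. Ligand secretion had -1.77 over 2, receptor turnover -0.51 over 2 and transducers and feedback in the cytoplasm -0.65 over 10. Agonists and antagonists outside the cell had -0.19 over 18 and junction partners 0.02 over 6. Of the 16 destruction complex probe sets, 4 were of Ppp2r5a and disagreed, at -1.08, -2.17, 3.35 and -1.78.

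The 3 list genes at an unadjusted p under 0.05 in LSC against HSC were Rnf146, Frat2 and Ppard. Rnf146, a ubiquitin ligase that degrades Axin, had scores of 20.07 and 28.04 in HSC, 15.37 and 14.51 in LSC, and 19.66 and 15.81 in Alox5-/- LSC. The difference of LSC from HSC was -9.12 ± 2.78 (SE). Its other probe set differed by 0.10, so the probe sets of this gene disagreed. Frat2, which binds GSK3 and keeps it from Axin, had scores of 27.42 and 26.57 in HSC, 23.25 and 22.90 in LSC, and 27.48 and 23.79 in Alox5-/- LSC. Ppard, a nuclear receptor reported as a target of the pathway, had 16.46 and 17.75 in HSC, 14.74 and 13.62 in LSC, and 14.19 and 14.42 in Alox5-/- LSC. For all 3 the LSC arrays lay below the HSC arrays, and their limma adjusted p was 0.993.

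In Alox5-/- LSC against LSC, 73 of 119 list scores were lower (61.3%, against 57.4% of all probe sets), and 4 (3.36%, against 3.96% of all) had an unadjusted limma p under 0.05, all lower in Alox5-/- LSC, as were 69.1% of all such probe sets. Amer1, a membrane-bound partner of APC, had the smallest of them (0.00429), with scores of 16.64 and 16.32 in HSC, 15.15 and 16.41 in LSC, and 11.15 and 10.11 in Alox5-/- LSC. Both Alox5-/- LSC arrays lay well below the other 4, at -5.16 ± 1.15 (SE) from LSC and -5.86 ± 1.15 from HSC. Birc5, the mitotic survival gene survivin, had 20.20 and 20.82 in HSC, 21.50 and 20.39 in LSC, and 15.88 and 17.78 in Alox5-/- LSC. The receptor Fzd3 differed by -5.88, with LSC arrays of 18.08 and 25.05, and the secreted antagonist Sfrp5 differed by -2.89. Each of the 4 had a limma adjusted p of 1.00.

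In Alox5-/- LSC against HSC, 82 of 119 list scores were lower (68.9%, against 67.1% of all probe sets), and 8 (6.72%, against 6.44% of all) had an unadjusted limma p under 0.05, 7 lower and 1 higher, where 82.5% of all such probe sets were lower. In each of the 3 comparisons the list's share was thus below or near that of all probe sets, and the genes named are descriptions. Wls, which carries Wnt ligands to the cell surface, had scores of 19.48 and 22.25 in HSC, 18.60 and 17.42 in LSC, and 16.52 and 14.05 in Alox5-/- LSC, with no overlap between any groups. The acetyltransferase genes Crebbp (-3.18) and Ep300 (-3.93), coactivators of beta-catenin, were lower, as were Frat1 (-3.86), the phosphatase subunit Ppp2ca (-4.33), Birc5 (-3.68) and Amer1. Ccnd1, cyclin D1, was the 1 with a higher score, at 4.02 ± 1.63 (SE). All 8 had a limma adjusted p of 0.769.

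**Figure D4:**
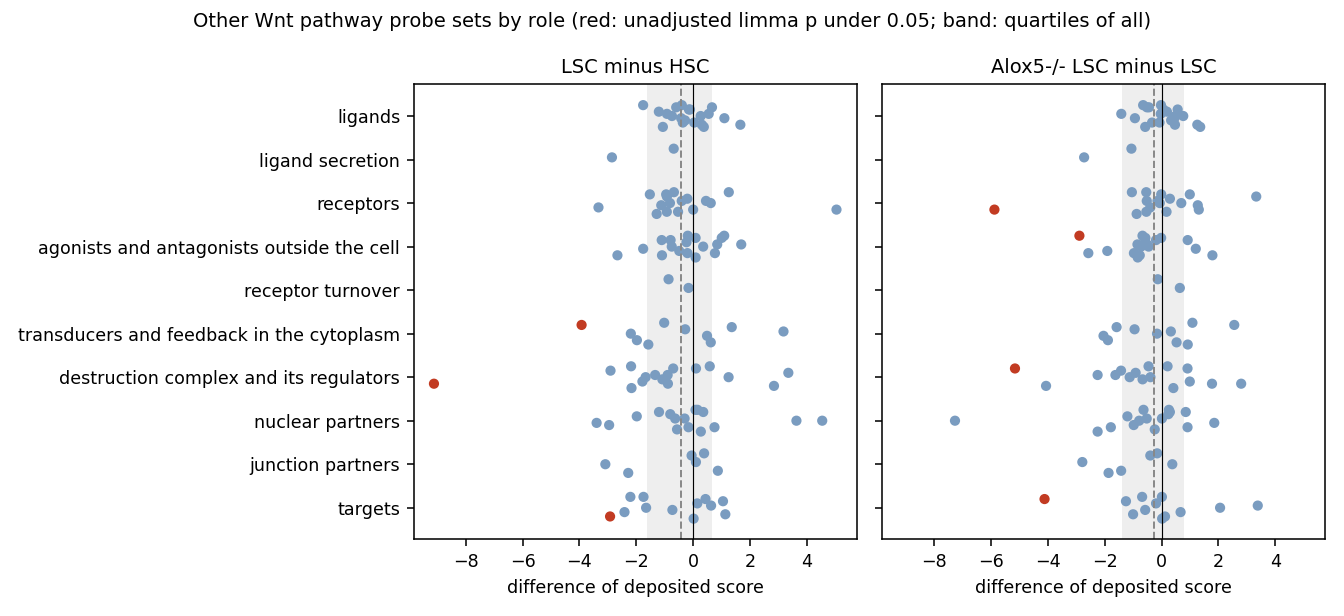
Difference of the deposited score (horizontal axis) for the 119 other Wnt pathway probe sets by role, for LSC minus HSC and Alox5-/- LSC minus LSC; red points have an unadjusted limma p under 0.05, grey bands are the quartiles and dashed lines the median of all probe sets. There are 3 red points on the left and 4 on the right, all below 0.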

How the data were processed

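The 6 arrays were grouped by their sample titles. The authors deposited 1 score per probe set and array, with unit, log base and direction not stated; Affymetrix Expression Console 1.1 and RMA are named per the submitters' processing notes, and the genome build is not given in the sources used here. The table listed 35557 probe sets, of which 34499 had values and 1058 were blank throughout. The platform annotation gave 21789 probe sets 1 symbol, 1621 several and 12147 none; only those with 1 symbol were used for genes.

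All probe sets with values were fitted in limma 3.58.1 (R 4.3.3), with a mean per group, a spread shared by the 6 arrays (3 residual degrees of freedom) and a prior variance that followed the mean score. Tests were two-sided with Benjamini-Hochberg adjustment over 34499 probe sets and a threshold of 0.05. Exact permutation of 2 arrays against 2 cannot go below p = 0.333 and was not used. The script was tested on simulated data. The number of arrays limits the precision. Groups are not overlapping where every array of one lies beyond every array of the other. Alternatives were centring, quantile normalization, a filter below the 25th percentile, 1 probe set per gene, no trend in the prior variance, a replicate block and each array left out in turn. Named were all members, Alox5, every gene of the Wnt list with an unadjusted p under 0.05, and the 3 genes most like Ctnnb1. The members, lists and tests were chosen with earlier results of these data known. Promoter windows came from RefSeq (GRCm38.p6), and figures were drawn with matplotlib 3.10.9.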

Additional observations from a re-analysis of the deposited data

How the results depend on the processing

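The count of probe sets called at an adjusted p under 0.05 was 0 in each comparison and under every alternative, left-out arrays included. Of the 54 member differences refitted under centring or quantile normalization, 4 changed sign. The filter, 1 probe set per gene, no trend and the replicate block leave a difference of group means as it is by construction. Axin2 in LSC minus HSC was 0.34 when centred and 0.37 when quantile normalized, and Lef1 in Alox5-/- LSC minus HSC was 0.55 and 0.47. The replicate numbers showed no sign of pairing, since deviations of same-numbered arrays correlated at -0.05 to -0.03; with the replicate block, probe sets at an unadjusted limma p under 0.05 went from 1704 to 1517 in LSC minus HSC, and 0 probe sets were called. Of the 108 refits that left out an array of a compared group, 20 changed sign. For LSC minus HSC the values then ran from -2.93 to 0.12 for Apc, -1.98 to 2.53 for Axin1 and -3.12 to 2.85 for Axin2. For Alox5-/- LSC minus LSC they ran from -4.31 to 0.54 for Apc, -1.04 to 3.93 for Axin1, -3.83 to 2.14 for Axin2, -0.79 to 2.67 for Ctnnb1, -1.29 to 1.74 for Gsk3b and -3.58 to 1.59 for Tcf7l2. For Alox5-/- LSC minus HSC they ran from -0.76 to 4.21 for Axin1, -3.11 to 1.15 for Axin2, -1.84 to 1.19 for Lef1 and -4.70 to 0.47 for Tcf7l2. Among those that kept their sign, Alox5-/- LSC minus LSC ran from 0.61 to 3.63 for Lef1, -3.90 to -1.55 for Lrp6 and 0.17 to 0.90 for Dvl2. Members at an unadjusted limma p under 0.05 numbered 0 to 1, 0 to 1 and 0 to 4 in the same order, with the 4 seen without Alox5-/- LSC replicate 1, and such a p was held by 3.9% to 7.62%, 3.51% to 6.21% and 5.08% to 9.23% of all probe sets in these fits (7.16% in the fit with 4 members); a lone array is then assumed to vary like the other groups. The causes were not tested.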
